A study of Mus musculus with 25 samples.

Results

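Interferon-stimulated genes are the transcripts that cells raise after an interferon has bound its receptor. The 36 genes described here are targets of type I and type II interferon, taken by symbol from the 17007 gene identifiers of a count table of mouse duodenum, and all 36 were found. They were split by textbook inducer into a type I arm of 28 genes and a type II arm of 8 genes, Gbp2, Gbp3, Gbp6, Gbp7, Iigp1, Igtp, Cxcl9 and Cxcl10, although many of them answer to both kinds of interferon.

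Polyadenylated RNA was sequenced from the duodenum of male C57BL/6N mice, here wild type (WT), and of Aldh2KI mice, which carry a knock-in (KI) at the gene for the mitochondrial enzyme that clears acetaldehyde. Feeding began at an age of 8 weeks and lasted 8 weeks. WT_Con (n = 4) and KI_Con (n = 4) received the control diet. WT_Half (n = 7) and KI_Half (n = 6, replicates 1, 2, 3, 5, 6 and 7) received a diet with 2.5% ethanol, with gavages of 2 g/kg 2 times per week. WT_Full (n = 4) received a diet with 5% ethanol, with gavages of 4 g/kg 2 times per week. The duodenum was collected 9 h after the final gavage, for which a dose of 5 g/kg is stated. Whether the control mice were gavaged, whether the WT_Half and KI_Half mice also received 5 g/kg last, and whether each library is 1 mouse were not stated in the labels, so p-values measure the spread between libraries.

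Type I interferons signal through Ifnar1 and Ifnar2 to a complex that includes Stat2 and Irf9 and binds the interferon-stimulated response element (ISRE) of target genes. Type II interferon, made mainly by T and natural killer (NK) cells, signals through Ifngr1 and Ifngr2 and acts on genes that carry the gamma-activated site (GAS). In the intestine both programmes are active at rest, in epithelium and in immune cells, and they supply antiviral enzymes, guanosine triphosphatases that attack intracellular pathogens, and chemokines that draw T cells.

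Library totals ran from 24.6 to 44.8 M counts, and the lowest count of any member in any library was 5. Markers of proximal enterocytes were high in every library, with a summed level of 15425 to 44502 counts per M of library counts (CPM), while the ileum marker Slc10a2 stayed between 0.511 and 2.68 CPM. The level of Aldh2 ran from 293 to 640 CPM, and gene counts cannot show a knock-in. The pieces of tissue differed in Brunner gland (15.3 to 53685 CPM over 3 markers) and in pancreatic acinar RNA (2.15 to 3184 CPM over 6 markers), the latter above 22.8 CPM only in control libraries. Library 1 of WT_Con stood apart for the genes described here: it was the highest of its group for 36 of 36 members, whereas it was the highest for 26.1% of all genes. For comparisons with WT_Con the arm medians, and the fold changes of several members, are also given without it.

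Per kb of exon, the highest members of the type I arm over all libraries were Isg15 (74.9 CPM per kb), a ubiquitin-like protein that is joined to other proteins, Oasl1 (66 CPM per kb), a translation regulator related to the oligoadenylate synthetases, and Bst2 (33.8 CPM per kb), which tethers enveloped viruses to the cell surface. The lowest of that arm was Ifi44 with 0.64 CPM per kb. In the type II arm the highest were Igtp (12.7 CPM per kb), an immunity-related guanosine triphosphatase, and the guanylate-binding proteins Gbp2 (4.55 CPM per kb) and Gbp3 (3.66 CPM per kb). The chemokines Cxcl9 and Cxcl10 stood at 0.61 and 1.72 CPM per kb, and Gbp6 at 0.227 CPM per kb. The top of the type I arm was thus above the top of the type II arm on this scale.

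The last 120 bases before the gene start are shown for 6 members to show where the elements of the interferon response lie, and Cxcl9 is included because the results below turn on it. The sequences are those of RefSeq in the build GRCm38.p6, written 5′ to 3′ on the strand of the gene. Capitals mark the ISRE core, GAAA and GAAA parted by any 2 bases on either strand, and the GAS core, TTC and GAA parted by any 3 bases, a pattern that is the same on both strands; neighbouring matches overlap in Isg15 and Gbp3.
Isg15: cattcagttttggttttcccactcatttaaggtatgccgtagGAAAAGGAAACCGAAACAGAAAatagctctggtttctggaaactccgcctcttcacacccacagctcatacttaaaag
Ifit1: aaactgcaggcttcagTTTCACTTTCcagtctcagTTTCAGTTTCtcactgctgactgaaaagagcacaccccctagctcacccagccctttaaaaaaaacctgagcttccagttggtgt
Gbp2: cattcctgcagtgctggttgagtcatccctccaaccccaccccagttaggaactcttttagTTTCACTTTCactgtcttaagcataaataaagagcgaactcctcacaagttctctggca
Gbp3: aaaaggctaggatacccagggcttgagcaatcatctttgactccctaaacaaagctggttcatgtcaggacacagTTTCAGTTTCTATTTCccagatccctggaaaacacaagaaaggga
Igtp: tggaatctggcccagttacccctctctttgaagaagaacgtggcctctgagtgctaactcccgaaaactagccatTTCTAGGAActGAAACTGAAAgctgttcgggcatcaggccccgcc
Cxcl9: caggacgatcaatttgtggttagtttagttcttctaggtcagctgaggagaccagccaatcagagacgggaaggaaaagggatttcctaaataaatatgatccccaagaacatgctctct

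The stretches lie at chr4:156200819-156200938 on the minus strand for Isg15, chr19:34640769-34640888 on the plus strand for Ifit1, chr3:142620543-142620662 on the plus strand for Gbp2, chr3:142559924-142560043 on the plus strand for Gbp3, chr11:58199436-58199555 on the plus strand for Igtp, and chr5:92328080-92328199 on the minus strand for Cxcl9. Windows of 250 bases before to 50 bases after the start were given for 27 members. The ISRE core was present in 13 of 21 type I genes (61.9%) and in 5 of 6 type II genes (83.3%), against 1079 of 27025 genes with a window (3.99%). The GAS core was present in 3 of 21 type I genes (14.3%), in 2 of 6 type II genes (33.3%) and in 9.55% of all genes. The letters of both cores were thus found in both arms, and the Cxcl9 window held no match to either. Igtp held both within 45 bases of its start.

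The most visible pattern was between libraries of the same group. Isg15 measured 156, 34.3, 18.1 and 19.8 CPM in replicates 1 to 4 of WT_Con, 41.5, 115, 45.7 and 48.2 CPM in WT_Full, and 39, 27.1, 22 and 51.4 CPM in KI_Con. It ran from 37.7 to 190 CPM (median 66.5) in WT_Half and from 9.28 to 72.4 CPM (median 33.4) in KI_Half. All 5 groups overlapped, and the range within WT_Con was wider than the distance between any 2 group medians. Ifit1, which binds viral RNA that lacks a host cap, measured 229, 54.6, 18.8 and 22 CPM in WT_Con, 51.1, 164, 57.9 and 64.5 CPM in WT_Full, and 41, 46.4, 29.2 and 66.9 CPM in KI_Con. It spanned 48.7 to 261 CPM (median 85.4) in WT_Half and 10.9 to 105 CPM (median 46.3) in KI_Half. The same replicates, WT_Con 1, WT_Full 2 and KI_Con 4, were the highest of their groups for both genes.

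**Figure D1:**
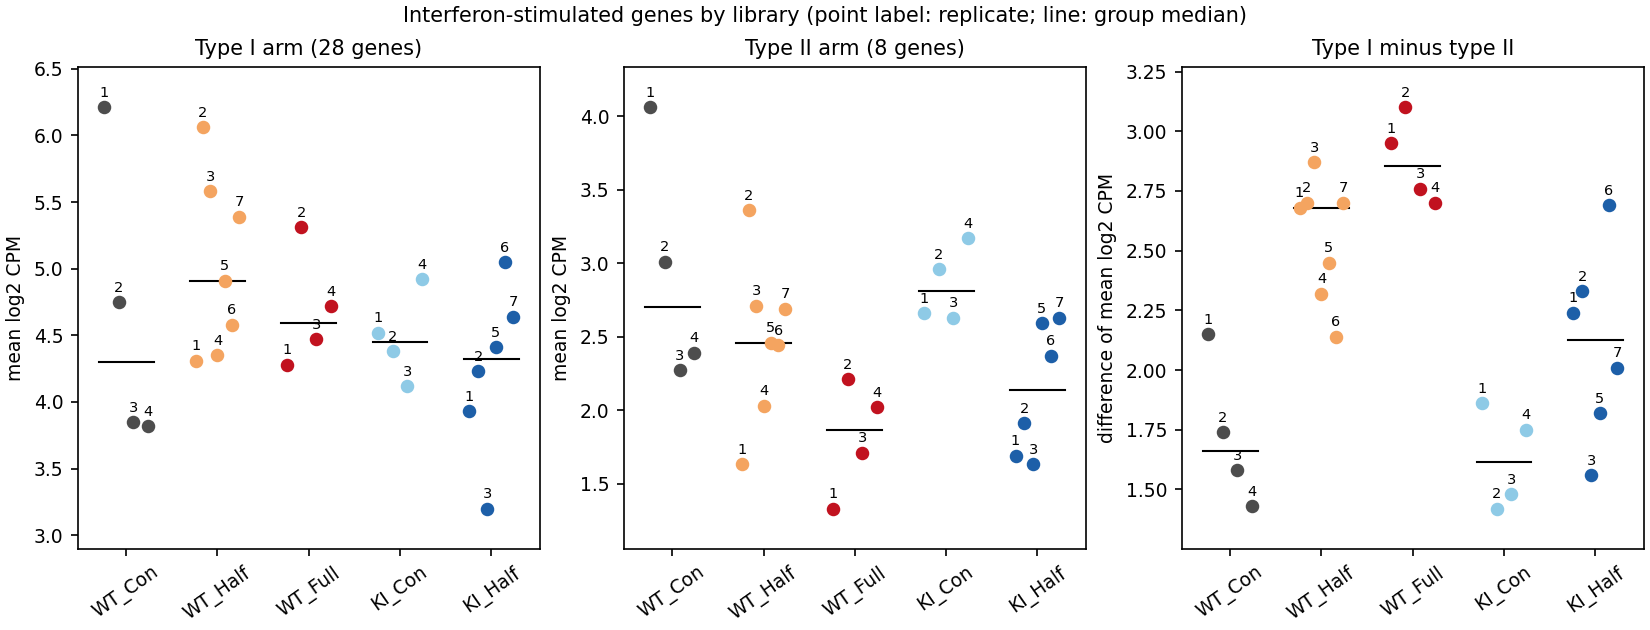
Mean log2 CPM of the 28 genes of the type I arm (left) and of the 8 genes of the type II arm (middle), and their difference (right), for each of the 25 libraries, with the replicate number above each point and a line at the group median. WT_Con replicate 1 lies at 6.21 in the type I arm while the other WT_Con libraries lie between 3.82 and 4.75, and the difference between the arms is 2.70 to 3.10 in WT_Full against 1.43 to 2.15 in WT_Con.

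The members moved together from library to library. The median standard deviation (SD) of log2 CPM within WT_Con was 1.21 for the type I arm and 0.82 for the type II arm, against 0.31 for all genes. In KI_Con it was 0.40 and 0.29, against 0.21 for all genes, and in WT_Half 0.73 and 0.76, against 0.34. WT_Full (0.55 and 0.61, against 0.41) and KI_Half (0.66 and 0.63, against 0.32) lay between these. Replicate 2 of WT_Half was the highest of its group for 29 of 36 members (14.4% of all genes), and replicate 2 of WT_Full for 29 (23.9%). Replicate 4 of KI_Con was the highest for 32 members (24.5% of all genes) and replicate 6 of KI_Half for 25 (13.7%). Replicate 3 of KI_Half was the lowest for 26 members (14.9% of all genes) and replicate 3 of KI_Con for 27 (25.2%). After the group means were subtracted, the Spearman correlation of a type I gene with the mean of the rest of its arm over the 25 libraries had a median of 0.91, and 23 of 28 genes reached 0.8. In the type II arm the median was 0.64, and Gbp3, Gbp7 and Igtp reached 0.8. With the mean of the type I arm, however, Gbp3, Gbp7 and Igtp had 0.89, 0.83 and 0.96. Cxcl10 had 0.79 with the type I mean and 0.55 with its own arm. Gbp6, Cxcl9, Iigp1 and Gbp2 had 0.72, 0.54, 0.33 and 0.22 with the type I mean. Igtp, Cxcl10 and Gbp6 thus followed the type I arm at least as closely as their own. These correlations describe libraries that share tissue make-up and depth and carry no test. Irf9, the DNA-binding subunit of the type I complex, followed its arm least among the type I genes (0.61), with 52 to 96.1 CPM over all 25 libraries, and Gbp2 least of the type II genes (0.32).

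**Figure D2:**
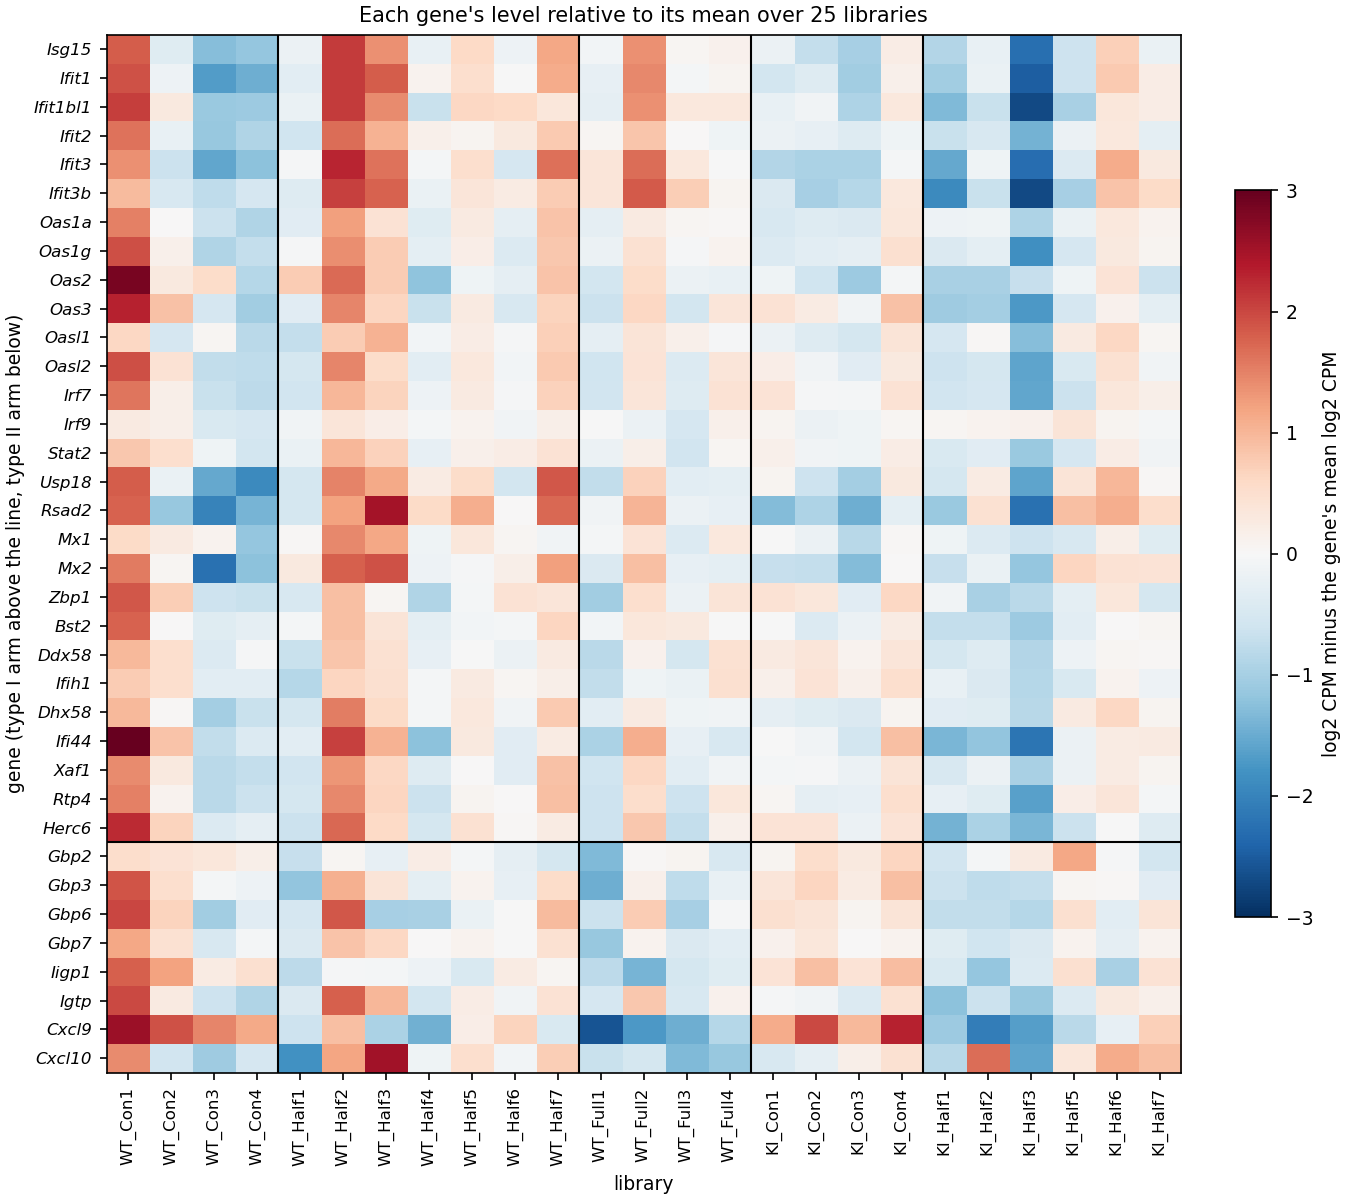
Level of each of the 36 genes in each of the 25 libraries as log2 CPM minus the mean of that gene over all libraries, with red for higher and blue for lower, groups parted by vertical lines and the arms by a horizontal line. Columns are red or blue over most of the type I arm at once, as in WT_Con replicate 1 and KI_Half replicate 3, while the Cxcl9 row is red in every control library.

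Of the 6 comparisons and the interaction, members passed the edgeR test only in the knock-in on the milder ethanol regimen. In KI_Half vs KI_Con, 7 of 36 members fell and none rose, by the quasi-likelihood test of edgeR at an adjusted p under 0.05. Over all 16944 genes, 37.9% passed in either direction and 17.9% fell, so the 19.4% of members that fell were near the share of all genes that fell. The 7 were Cxcl9, Gbp3 and Iigp1 of the 8 type II genes (37.5%) and Ifih1, Herc6, Oas3 and Ddx58 of the 28 type I genes (14.3%). The median log2 fold change was -0.45 in the type II arm and -0.16 in the type I arm, against 0.00 over all genes. The type I median rested on single libraries: it was 0.00 without KI_Con replicate 4, -0.01 without KI_Half replicate 3 and -0.32 without KI_Half replicate 6, while the type II median ran from -0.63 to -0.36.

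Cxcl9, a chemokine that draws T cells through the receptor Cxcr3, measured 2.5, 4.53, 2.25 and 5.69 CPM in KI_Con and 0.274 to 1.89 CPM (median 0.597) in KI_Half. Every KI_Half library lay below every KI_Con library. The log2 fold change was -2.24 ± 0.49 (standard error, SE), which is 4.74-fold lower (edgeR adjusted p = 0.00496). Gbp3 measured 13.4, 16.4, 12.4 and 19.5 CPM in KI_Con and 6.16 to 11 CPM (median 7.47) in KI_Half, again without overlap. Its log2 fold change was -0.90 ± 0.21 (edgeR adjusted p = 0.00645). Iigp1, another immunity-related guanosine triphosphatase, measured 8.27, 11.6, 8.33 and 11.9 CPM in KI_Con and 2.8 to 8.65 CPM (median 4.59) in KI_Half. The groups overlapped in 2 KI_Half libraries, replicates 5 and 7, and the log2 fold change was -0.89 ± 0.32 (edgeR adjusted p = 0.0483). The call of Iigp1 was lost when any 1 of 8 of the 10 libraries was left out, while Cxcl9 and Gbp3 passed with each library left out in turn. Without the 2 KI_Con libraries rich in the acinar gene Ctrb1, only Cxcl9 and Gbp3 of the 36 members passed, beside 15.1% of all genes, and in 1 fit of all 25 libraries only Cxcl9 and Iigp1 did, beside 32% of all genes.

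Among the type I genes, the viral RNA sensors Ifih1 (MDA5) and Ddx58 (RIG-I) fell without overlap of the groups. Ifih1 measured 76.2, 91, 75.6 and 97 CPM in KI_Con and 38.1 to 74.2 CPM (median 54.7) in KI_Half, a log2 fold change of -0.60 ± 0.16 (edgeR adjusted p = 0.0132). Ddx58 measured 46.9, 49.5, 41.5 and 50.2 CPM in KI_Con and 20.9 to 40.4 CPM (median 32.2) in KI_Half, a log2 fold change of -0.54 ± 0.17 (edgeR adjusted p = 0.0271). Groups that do not overlap, in the lower direction, were found for 4 of 36 members (Cxcl9, Gbp3, Ifih1 and Ddx58) and for 13.9% of all genes. Herc6, the ligase that attaches Isg15 in mice, measured 12.3, 12.4, 8.23 and 12.3 CPM in KI_Con and 3.51 to 9.27 CPM (median 5.39) in KI_Half, with a log2 fold change of -0.97 ± 0.27 (edgeR adjusted p = 0.0157). Oas3, a synthetase of the RNA-degrading 2-5A pathway, measured 43.6, 38.2, 30.2 and 59.2 CPM in KI_Con and 9.73 to 35.6 CPM (median 19.3) in KI_Half, with a log2 fold change of -1.01 ± 0.31 (edgeR adjusted p = 0.024). For both genes 1 KI_Half library, replicate 6, reached into the range of KI_Con. With libraries left out in turn, Ifih1 and Herc6 passed each time, while Oas3 was lost in 4 of 10 fits and Ddx58 in 5.

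The widely used markers of a type I response did not pass in that comparison. Isg15 had a log2 fold change of 0.03 ± 0.43, Ifit1 of 0.18 ± 0.48 and Oasl1 of 0.13 ± 0.31, and Bst2 of -0.32 ± 0.23. Rsad2 (viperin, an antiviral enzyme) had the largest positive value of the 36 members, 1.25 ± 0.55 (edgeR adjusted p = 0.0921), with 13.7, 17.8, 12.1 and 27.6 CPM in KI_Con and 7.07 to 71.8 CPM (median 47.4) in KI_Half. Replicate 3 of KI_Half was below every KI_Con library for Rsad2. Without that library Rsad2 passed as higher, at 1.48 (edgeR adjusted p = 0.0158). The standard errors leave room for changes of Isg15 and Ifit1 in either direction.

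**Figure D3:**
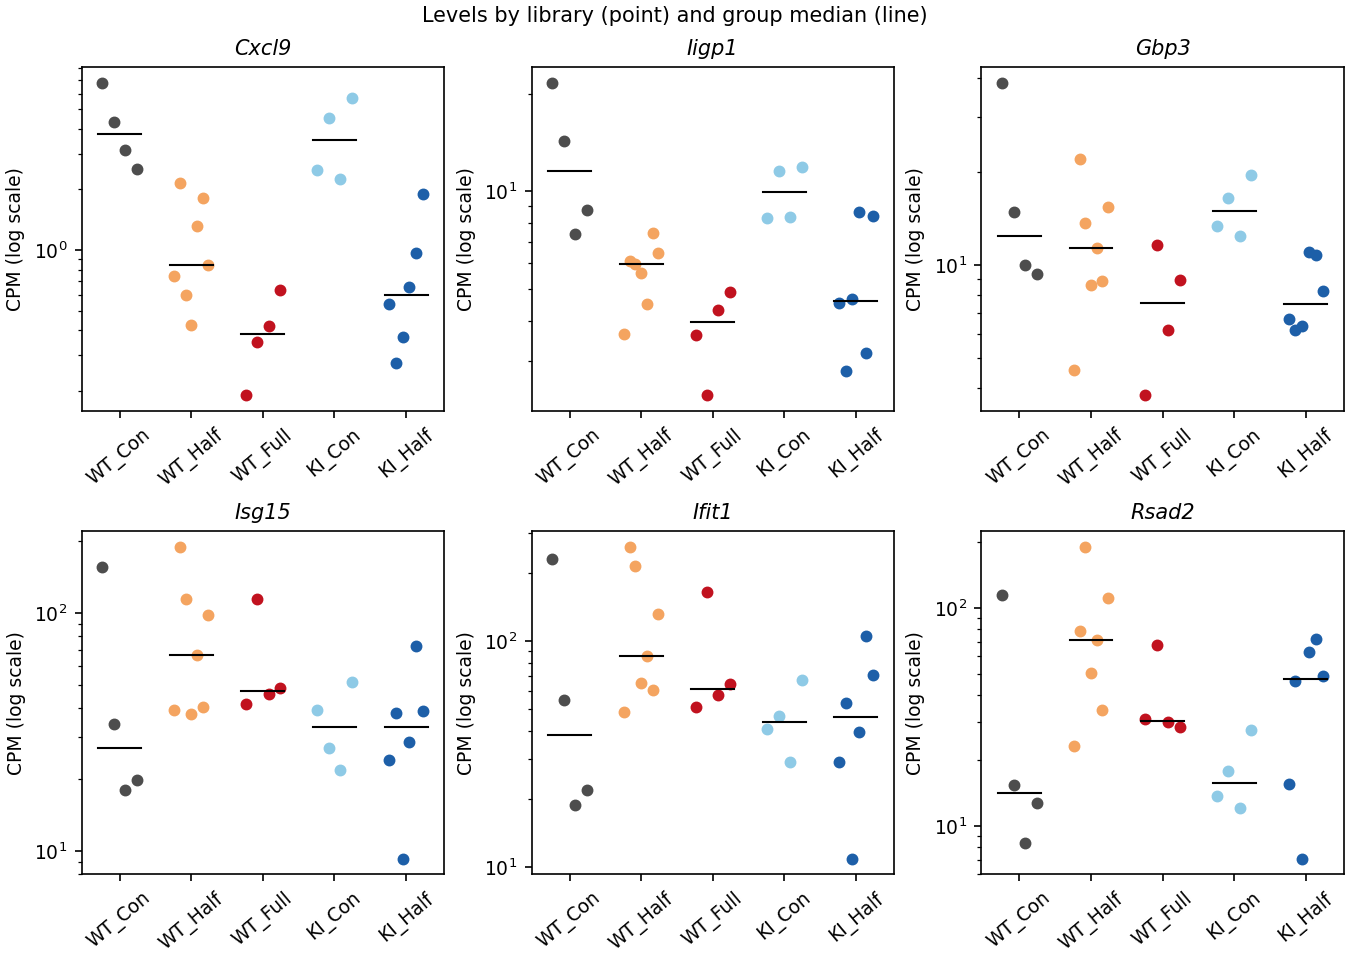
CPM on a log axis in each library (points) and the group median (line) of Cxcl9, Iigp1 and Gbp3 of the type II arm and Isg15, Ifit1 and Rsad2 of the type I arm, in the 5 groups. Cxcl9 is lower in every KI_Half library (0.274 to 1.89 CPM) than in KI_Con (2.25 to 5.69 CPM) and lower in every WT_Full library (0.19 to 0.636 CPM) than in WT_Con (2.53 to 6.78 CPM), whereas the groups overlap for Isg15, Ifit1 and Rsad2.

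In wild type, no member passed in either ethanol comparison, and the smallest p-values in both were those of Cxcl9 and Iigp1. In WT_Full vs WT_Con, 1 of 16882 genes passed (0.00592%), and in WT_Half vs WT_Con 249 of 16993 (1.47%), with edgeR. At an unadjusted p under 0.05 there were 4 members in WT_Full vs WT_Con (17.8% of all genes) and 3 in WT_Half vs WT_Con (21.8% of all genes), all of the type II arm. Cxcl9 measured 6.78, 4.35, 3.16 and 2.53 CPM in WT_Con, 0.19, 0.348, 0.419 and 0.636 CPM in WT_Full and 0.424 to 2.16 CPM (median 0.842) in WT_Half. All 11 ethanol-fed wild-type libraries lay below the 4 WT_Con libraries. The log2 fold change was -3.38 ± 0.47 in WT_Full (10.4-fold lower, edgeR adjusted p = 0.058) and -1.88 ± 0.43 in WT_Half (3.69-fold lower, edgeR adjusted p = 0.0505). With DESeq2 the adjusted p-values were 1.65e-09 and 0.00123, and with limma-voom 0.0252 and 0.0285.

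Iigp1 measured 21.6, 14.3, 7.41 and 8.76 CPM in WT_Con, 3.61, 2.36, 4.31 and 4.89 CPM in WT_Full and 3.65 to 7.46 CPM (median 5.98) in WT_Half. WT_Full lay wholly below WT_Con, and WT_Half overlapped it in 1 library. The log2 fold change was -1.77 ± 0.39 in WT_Full (edgeR adjusted p = 0.137) and -1.19 ± 0.28 in WT_Half (edgeR adjusted p = 0.0579). Gbp2 measured 15.6, 14.4, 13.7 and 12.1 CPM in WT_Con, 4.33, 11, 11.5 and 7.73 CPM in WT_Full and 6.7 to 12.5 CPM (median 9.03) in WT_Half, with log2 fold changes of -0.68 ± 0.29 and -0.56 ± 0.17 (edgeR adjusted p = 0.273 and 0.107). Gbp3 had log2 fold changes of -1.26 ± 0.51 and -0.60 ± 0.44, from 38.7, 14.8, 10 and 9.38 CPM in WT_Con to 3.8, 11.6, 6.18 and 8.94 CPM in WT_Full. Without WT_Con replicate 1 the WT_Full value of Gbp3 was -0.56. Groups that do not overlap, in the lower direction, were found for 3 members in WT_Full vs WT_Con (Cxcl9, Iigp1 and Gbp2; 3.78% of all genes) and for 1 in WT_Half vs WT_Con (Cxcl9; 2.17% of all genes). The authors' deposited table of WT_Full vs WT_Con calls 3 members lower, Cxcl9 (adjusted p = 7.94e-07), Iigp1 (9.16e-05) and Gbp3 (0.034), beside 11.5% of its genes.

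The type I arm had no common direction in wild type that held without 1 library. Its median log2 fold change was -0.34 in WT_Full vs WT_Con and 0.09 in WT_Half vs WT_Con, and without WT_Con replicate 1 it was 0.42 and 0.75. The type II median was -0.96 and -0.47 with all libraries, and -0.47 and 0.19 without WT_Con replicate 1. In WT_Half vs WT_Con the type I median also turned negative without WT_Con replicate 3 (-0.14) or 4 (-0.12) or WT_Half replicate 2 (-0.17). The values of Cxcl9 kept their sign without that library (-3.03 in WT_Full and -1.54 in WT_Half), as did those of Iigp1 (-1.40 and -0.82). Ifit3 and Ifit3b, antiviral proteins of the Ifit1 family, had the smallest p among type I genes with a positive value: in WT_Half vs WT_Con Ifit3 stood at 1.12 ± 0.67 and Ifit3b at 0.95 ± 0.52 (edgeR adjusted p = 0.343 and 0.305), and in WT_Full vs WT_Con Ifit3b stood at 0.94 ± 0.50. Without WT_Con replicate 1 these values were 2.23, 1.52 and 1.52. Ifi44 and Oas2 had negative values in WT_Full vs WT_Con, -1.59 ± 0.89 and -1.44 ± 0.71, and WT_Con replicate 1 alone held 25.6 CPM of Ifi44 where the others held 1.63 to 4.89. Without it the values were 0.03 for Ifi44 and -0.14 for Oas2.

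Between the regimens, 35 of 36 members had a negative value in WT_Full vs WT_Half, against 45.3% of all genes. No member passed the edgeR test, and 0 of 16967 genes passed (0%). The median was -0.40 in the type I arm and -0.61 in the type II arm. Without WT_Half replicate 2 the medians were -0.14 and -0.48, and 31 members had a negative value. At an unadjusted p under 0.05 there were 4 members, all of the type II arm, against 4.6% of all genes. Cxcl10, a further Cxcr3 ligand, measured 1.82, 2.01, 1.15 and 1.31 CPM in WT_Full and 0.819 to 16.7 CPM (median 4.09) in WT_Half, with a log2 fold change of -1.79 ± 0.65. Its highest library was WT_Half replicate 3, and the groups overlapped. For Cxcl9 the value was -1.47 ± 0.51, for Gbp7 -0.65 ± 0.28 and for Iigp1 -0.57 ± 0.25, each with an edgeR adjusted p of 1. Of the type I genes Rsad2 (-1.01 ± 0.51), Usp18 (-0.90 ± 0.47), the protease that removes Isg15, and Stat2 (-0.44 ± 0.24) had the smallest p. WT_Full and WT_Half are compared here directly; their comparisons with WT_Con share the control libraries.

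The knock-in was compared with wild type within each diet. On control diet (KI_Con vs WT_Con) no member passed with edgeR, 0 of 16813 genes passed (0%), and 33 of 36 members had a negative value. At an unadjusted p under 0.05 there was 1 member, Oas2, against 9.9% of all genes. Oas2 stood at -1.82 ± 0.70, from 52.7, 9, 10.8 and 4.03 CPM in WT_Con to 6.65, 4.86, 3.43 and 6.99 CPM in KI_Con (edgeR adjusted p = 0.502), and at -0.55 without WT_Con replicate 1. Ifi44 (-1.52 ± 0.83), Bst2 (-0.67 ± 0.45), Igtp (-0.66 ± 0.57), Iigp1 (-0.39 ± 0.32) and Gbp7 (-0.26 ± 0.31) followed by p in their arms. Without that library they stood at 0.07, 0.12, 0.32, -0.03 and 0.12. The median was -0.56 in the type I arm and -0.26 in the type II arm, and 0.27 and 0.24 without WT_Con replicate 1. The direction in this comparison thus rested on that library.

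Under the milder regimen (KI_Half vs WT_Half) 34 of 36 members had a negative value, with a median of -0.80 in the type I arm and -0.52 in the type II arm against -0.02 over all genes. No member and 0 of 16907 genes passed with edgeR (0%). At an unadjusted p under 0.05 there were 19 of 36 members, 17 of the type I arm and 2 of the type II arm, against 14.2% of all genes. With limma-voom 2 of 36 members passed as lower, Herc6 and Gbp7, beside 5.23% of all genes, a share like that of the members. Herc6 ran from 3.51 to 9.27 CPM (median 5.39) in KI_Half and from 5.98 to 30.8 CPM (median 11.1) in WT_Half, a log2 fold change of -1.18 ± 0.37 (edgeR adjusted p = 0.273). Stat2, which joins Irf9 in the type I complex, ran from 31.1 to 78.5 CPM (median 51.3) in KI_Half and from 57.2 to 134 CPM (median 78.8) in WT_Half, with -0.68 ± 0.23 (edgeR adjusted p = 0.277). Ifit2 had -1.01 ± 0.34, Igtp -0.95 ± 0.38, Gbp7 -0.50 ± 0.21 and Gbp3 -0.56 ± 0.30, the first with an edgeR adjusted p of 0.278. All these groups overlapped. With each library left out in turn the type I median ran from -0.97 to -0.58, and the type II median from -0.61 to -0.27, the latter without WT_Half replicate 2. The authors' deposited table of this comparison calls 0 of the 36 members, beside 1.24% of its genes.

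**Figure D4:**
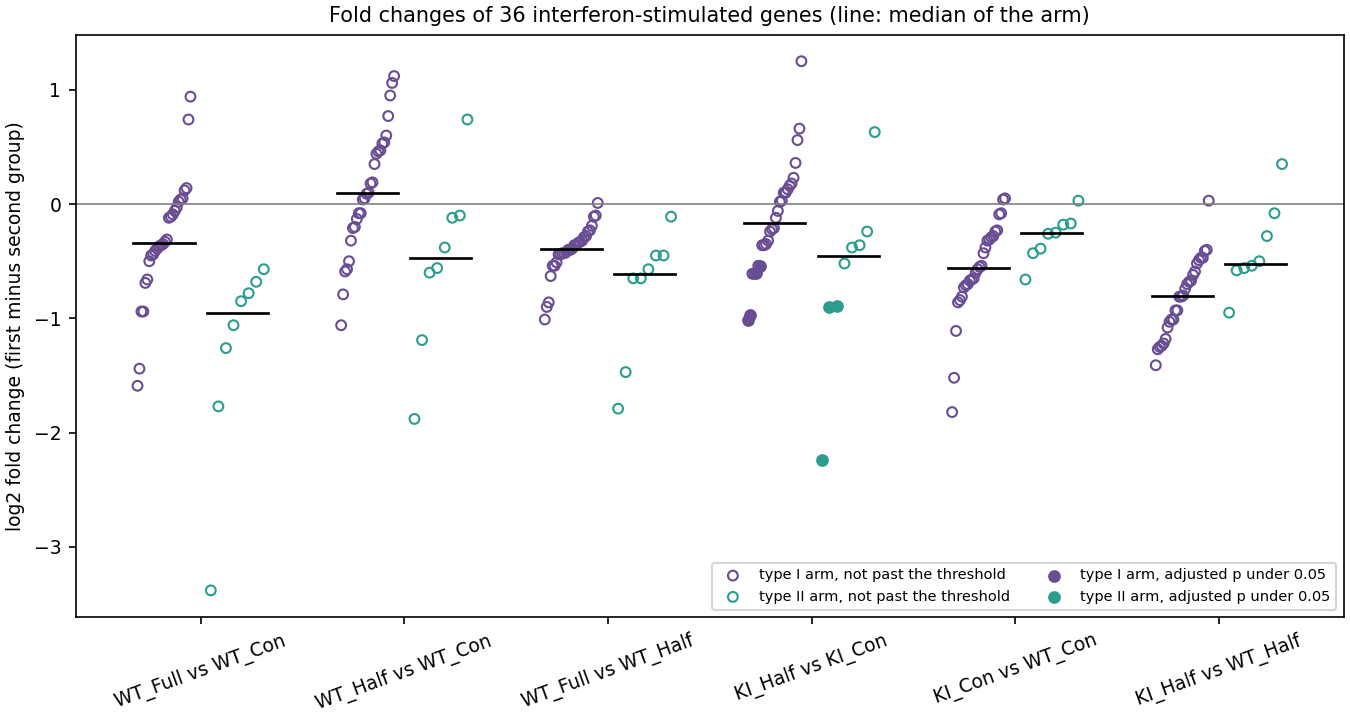
Log2 fold change of each of the 36 genes (first minus second group) in the 6 comparisons, with the type I arm in purple and the type II arm in green, filled where the edgeR adjusted p is under 0.05, and a line at the median of each arm. Filled points appear only in KI_Half vs KI_Con, where 7 members are lower, and 34 of 36 points lie below 0 in KI_Half vs WT_Half without passing.

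Several oligoadenylate synthetase genes lie on the chromosome of the knock-in. Oas1a, Oas1g, Oas3 and Oas2 are on chromosome 5, 0.66 to 0.82 Mb from Aldh2, and Oasl1 and Oasl2 are 6.63 and 6.65 Mb from it, by the GENCODE M21 annotation of GRCm38. An effect of sequence carried along with the knock-in and an effect of the knock-in cannot be told apart for these genes. Under the milder regimen Oas3 stood at -1.03 ± 0.36, Oas2 at -1.01 ± 0.39, Oas1g at -0.80 ± 0.34 and Oas1a at -0.49 ± 0.27 against wild type, within the range of the other type I genes (-1.41 to 0.03). Oas1a and Oas1g share 57.6% and 45.7% of their 50-base words with other genes, Ifit3 and Ifit3b 51.2% and 45%, and Gbp6 70.7%, so reads could be split between copies. By exon overlap, 29% of Gbp6, 13.9% of Rtp4, 13.7% of Herc6 and 11.3% of Gbp7 lie in exons of another annotated gene, and no strand setting of the counting was given in the labels.

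Whether the diet acted differently in the genotypes was tested as the interaction, the change from KI_Con to KI_Half minus the change from WT_Con to WT_Half. No member passed with edgeR, and neither did any of 17006 genes (0%). No member had an unadjusted p under 0.05, against 12.7% of all genes. The smallest p were those of Ifih1 (-0.53 ± 0.34), Stat2 (-0.46 ± 0.37) and Mx1 (-0.53 ± 0.46), an antiviral guanosine triphosphatase whose gene is defective in C57BL/6 mice, with edgeR adjusted p from 0.503 to 0.623. The type I median was -0.31, and with each library left out in turn it ran from -1.10 (without WT_Con replicate 1) to -0.08 (without WT_Con replicate 3 or WT_Half replicate 2). The fall of 7 members in the knock-in was therefore not shown to differ from the values in wild type; for Cxcl9 the difference between genotypes was -0.37 ± 0.68 for Iigp1 0.30 ± 0.45, for Gbp2 0.32 ± 0.36 and for Gbp7 -0.25 ± 0.37.

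The distance between the arms differed between control and ethanol libraries. The mean log2 CPM of the type I arm minus that of the type II arm was 1.43 to 2.15 in WT_Con, 2.14 to 2.87 in WT_Half and 2.70 to 3.10 in WT_Full. WT_Full did not overlap WT_Con, and WT_Half overlapped it by 1 library. In the knock-in the difference was 1.42 to 1.86 in KI_Con and 1.56 to 2.69 in KI_Half, where only replicates 3 and 5 lay within the range of KI_Con. WT_Con replicate 1, WT_Full replicate 2 and KI_Half replicate 6 were the highest of their groups both in the type I arm and in this difference. KI_Half replicate 3 was the lowest of its group in both. In WT_Half and KI_Con the libraries highest in the type I arm, replicates 2 and 4, were not the highest in the difference. Those were replicate 3 of WT_Half (2.87) and replicate 1 of KI_Con (1.86). WT_Full replicate 4, at 4.72 in the type I arm, had the lowest difference of its group (2.70). The difference is a description of these 36 genes, with no test.

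Markers of several cell types differed between ethanol and control libraries. In KI_Half vs KI_Con, 10 of 12 markers of T and NK cells and 5 of 7 of cells with MHC class II fell (edgeR). So did 5 of 10 markers of macrophages and dendritic cells, 3 of 4 of B and plasma cells and 5 of 10 of proximal enterocytes. The markers that rose were 3 of 4 of neutrophils, 1 of 5 of Paneth cells and 1 of 10 of macrophages and dendritic cells. Over all 16944 genes, 37.9% passed in either direction, 17.9% fell and 3388 genes rose. The Paneth cell share (20%) was near that of all genes that rose. In KI_Half vs WT_Half none of these markers passed. The median log2 fold change was 0.03 for the MHC class II markers and -0.42 for the T and NK markers. It was -0.10 for the markers of macrophages and dendritic cells and -0.23 for those of B and plasma cells. The summed level of 12 T and NK cell markers ran in WT_Con from 115 to 296 CPM (median 240), in WT_Half from 16.3 to 172 (median 80.4), and in WT_Full from 15.1 to 58.4 (median 20.1). In KI_Con it ran from 233 to 300 CPM (median 248) and in KI_Half from 33.3 to 166 (median 61). Of the 12 markers, Cd8b1 was at 0 in 2 libraries and the others in none; Cd3e spanned 0.27 to 10.1 CPM. The 7 markers of cells with MHC class II spanned 1507 to 1937 CPM in WT_Con, 194 to 881 in WT_Half and 132 to 1165 in WT_Full. They spanned 811 to 3263 CPM in KI_Con and 204 to 1443 in KI_Half. Summed markers of macrophages and dendritic cells spanned 106 to 231 CPM in WT_Con, 74.5 to 199 in WT_Half and 52.8 to 161 in WT_Full. These sums were 174 to 353 CPM in KI_Con and 64.1 to 175 in KI_Half. Summed markers of neutrophils went the other way, with 1.18 to 2.88 CPM in WT_Con against 10.7 to 71.4 in WT_Half and 3.88 to 162 in WT_Full. In the knock-in these sums were 2.37 to 4.04 CPM in KI_Con against 16.4 to 522 in KI_Half. The highest sum was mainly Ly6g, which reached 474 CPM. S100a8, S100a9 and Csf3r reached at most 15.1, 23.8 and 9.21 CPM in any library. In bulk tissue, fewer cells of a type and less RNA per cell cannot be told apart. The part of these cells in the values of Cxcl9, Iigp1 and Gbp3 was not tested.

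**Figure D5:**
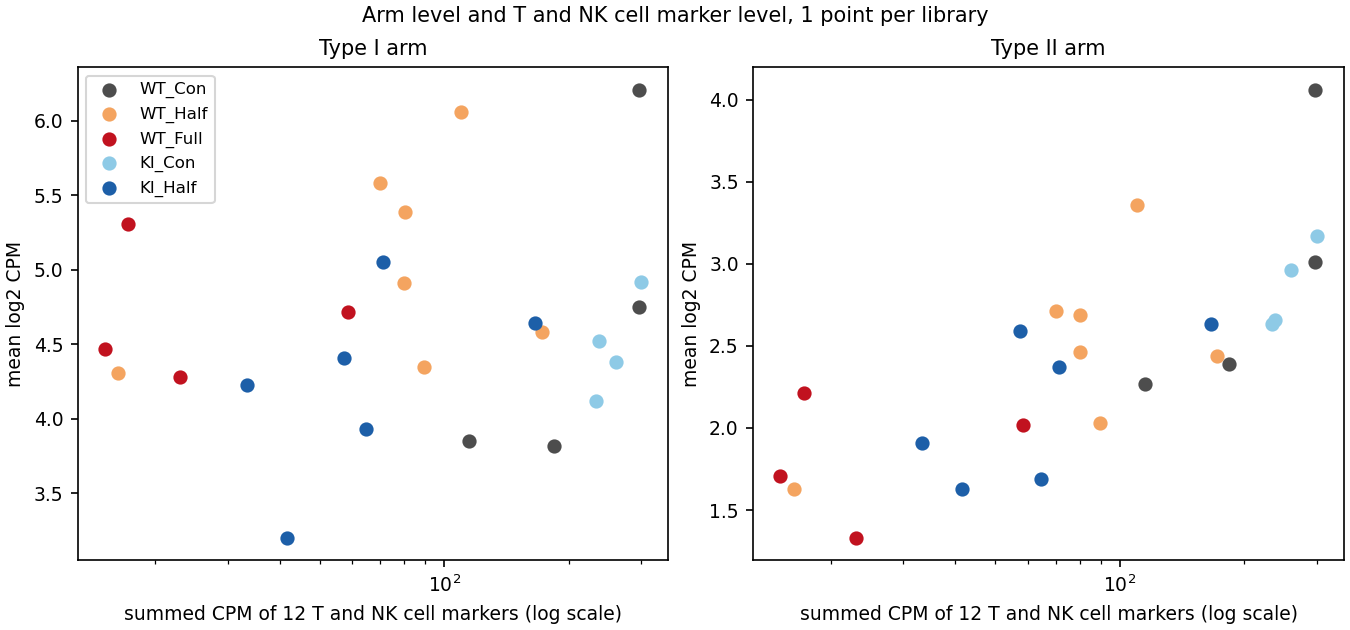
Mean log2 CPM of the type I arm (left) and of the type II arm (right) against the summed CPM of 12 T and NK cell markers on a log axis, with 1 point for each of the 25 libraries coloured by group. The 4 WT_Full libraries lie at 15.1 to 58.4 CPM of the markers and at 1.33 to 2.21 in the type II arm. The 4 WT_Con libraries, of the same genotype as WT_Full, lie at 115 to 296 CPM and 2.27 to 4.06. The 4 KI_Con libraries, which differ from WT_Full in genotype and diet, lie at 233 to 300 CPM and 2.63 to 3.17. WT_Half replicate 2 lies at 110 CPM and 3.36, above every KI_Con library in the type II arm, and WT_Half replicate 6 at 172 CPM and 2.44.

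Genes that carry the signal were described from lists outside the members. None of the 21 interferon genes listed is among the gene identifiers used here, and their levels were not analysed here. Of 17 receptor and JAK-STAT genes, 6 fell and 3 rose in KI_Half vs KI_Con (edgeR; 37.9% of all genes passed in either direction). Ifngr2, a subunit of the type II receptor, fell from 207 ± 12.7 (SD, n = 4) to 125 ± 36.3 CPM (SD, n = 6), the kinase Jak2 from 152 ± 17.6 to 96.8 ± 13.9 CPM and Irf1, a factor induced by type II interferon, from 169 ± 10.5 to 110 ± 25.8 CPM, with edgeR adjusted p of 0.0132, 0.00247 and 0.0134. Socs1 and Socs3, inhibitors of cytokine receptors, rose by log2 fold changes of 2.37 ± 0.63 and 2.28 ± 0.72 (edgeR adjusted p = 0.0127 and 0.0282). Socs1 went from 2.43 ± 0.269 to 12.5 ± 12.2 CPM (SD) and Socs3 from 45 ± 9.38 to 217 ± 215 CPM (SD). The KI_Half libraries thus differed widely in both, and the groups overlapped for Socs3 but not for Socs1. Socs3 is also a target of other cytokines. Of 17 nucleic acid sensors and adaptors, 7 fell and 2 rose: the kinase Tbk1 had -0.64 ± 0.10 and the nucleotide hydrolase Samhd1 -1.54 ± 0.27, while Sting1, the adaptor of the DNA sensor Cgas, had 1.37 ± 0.39 and Cgas 0.88 ± 0.27.

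Further targets of each arm were then counted in the knock-in. Of 25 further type II targets, 13 fell and none rose in KI_Half vs KI_Con with edgeR, with a share of 52% beside the 17.9% of all genes that fell. Ido1, which breaks down tryptophan, fell from 19.7 ± 7.76 to 2.78 ± 0.811 CPM, a log2 fold change of -2.81 ± 0.29 (edgeR adjusted p = 0.00025). The immunoproteasome subunits Psmb8 (-1.33 ± 0.21), Psmb9 (-0.99 ± 0.24) and Psmb10 (-0.79 ± 0.10), the peptide loading genes Tap2 (-0.90 ± 0.17) and Tapbp (-1.04 ± 0.14), and B2m (-1.08 ± 0.17), the light chain of MHC class I, fell as well. Of 45 further type I targets, 10 fell and 6 rose. Together they were 35.6% of the list, near the 37.9% of all genes that passed in either direction. Among those that rose were the membrane antiviral genes Ifitm1 (1.48 ± 0.27), Ifitm2 (1.21 ± 0.15) and Ifitm3 (1.04 ± 0.20). Among those that fell were Uba7 (-1.12 ± 0.16) and Ube2l6 (-1.26 ± 0.18), the enzymes that load Isg15. The list of further type II targets shares Ciita and Cd74 with the markers of cells with MHC class II.

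In wild type 1 of these genes passed: Ifitm1 rose in WT_Half vs WT_Con from 5.91 ± 1.29 (SD, n = 4) to 17 ± 4.93 CPM (SD, n = 7), a log2 fold change of 1.53 ± 0.24 (edgeR adjusted p = 0.0178). In WT_Full vs WT_Con 23 of 25 further type II targets had a negative value, against 50.1% of all genes, and none passed with edgeR. At an unadjusted p under 0.05 there were 12 of the 25, against 17.8% of all genes. The smallest p there were those of the guanosine triphosphatase Tgtp2 (-2.84 ± 0.60) and of Batf2, which had a positive value (0.63 ± 0.13), each with an edgeR adjusted p of 0.129. In KI_Half vs WT_Half no gene of the 4 lists passed, with Socs3 at 1.95 ± 0.55 and Socs1 at 1.55 ± 0.46 (both edgeR adjusted p = 0.266).

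Over the 25 libraries, the genes outside the lists whose levels ranked most like the mean of the type I arm were Rnf213 (Spearman rho 0.92), Trim12a (0.91), Ifi27l2b (0.83), H2-T22 (0.77) and Trim5 (0.76), out of 12519 genes compared. Most like the type II arm were H2-T22 (0.87), H2-Q4 (0.86), Sp110, H2-Q5 and H2-Q6 (0.85 each). H2-T22 and the H2-Q genes are nonclassical MHC class I genes, a family with close copies, so their counts are uncertain. These ranks describe the libraries, which share groups, tissue make-up and depth, and carry no test.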

How the data were processed

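Per the submitters' processing notes, reads were handled with FastQC, Trimmomatic, HISAT2 on GRCm38, SAMtools, featureCounts and DESeq2; no versions, strand setting or annotation release were given. The deposited counts are whole reads per gene, not normalised, and the 2 tables hold the same counts. The authors' tables also hold log2 fold changes and p-values of their own comparison, and, not used here, a mean normalised signal (baseMean) and score columns (test statistic and ranks), per the file headers. Each table has 17220 lines for 17007 gene identifiers; of a repeated identifier the first line was used.

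For each comparison only its 2 groups entered the model, tested two-sided by edgeR's quasi-likelihood F test (edgeR 4.0.16, R 4.3.3; TMM, filterByExpr, no covariate), with p-values adjusted by Benjamini-Hochberg over all genes tested and a threshold of 0.05. The interaction used 4 groups. All 36 members passed the filter everywhere. CPM are after TMM over all libraries, and log2 CPM use a prior count of 2. Depth was 24.6 to 44.8 M counts per library. The steps were checked on simulated counts. Alternatives were DESeq2 1.42.0 and limma-voom (limma 3.58.1) with sample quality weights. Further ones were no filter, relative log expression size factors, a replicate block, 1 model over all libraries, and leaving out each library. The block fit held only libraries whose replicate number occurs in every group compared. Added after seeing the data were a Brunner gland covariate and a fit without the control libraries in which the acinar gene Ctrb1 exceeded 10 CPM (3 of WT_Con, 2 of KI_Con).

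Members, arms and lists were chosen with earlier results of these data known. Named are the 3 highest members per arm by CPM per kb, the 3 with the smallest p per arm and comparison, some of the 2 genes with the smallest p per list and comparison, and 5 genes per arm by likeness; further members and list genes were named after their values were seen.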

Additional observations from a re-analysis of the deposited data

Results flagged for a closer look

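Levels of members were looked at in 120 groups of values, each of 4 to 7 libraries. Those 120 do not cover every member in every group. In 5 of them 1 library lay far from the rest of its group, and chance alone marks about 1 in 20 such groups. Isg15 stood at 115 CPM in replicate 2 of WT_Full, above the others. Rsad2 stood at 67.9 CPM in the same library. Ifit3b stood at 8.65 CPM in replicate 1 of WT_Con, and Ifit3 at 23.6 CPM in replicate 4 of KI_Con, each above the others. Herc6 stood at 8.23 CPM in replicate 3 of KI_Con, below the others.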

How the results depend on the processing

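The count of members past the threshold depended on the setting, and so did the share of all genes. In WT_Full vs WT_Con it was 0 with edgeR, 2 with DESeq2 (5.52% of all genes), 1 with limma-voom (8.35%) and 2 with 1 fit of all libraries (7.58%), and 0 to 2 with each library left out (2 without WT_Full replicate 4, beside 12.2%). In WT_Half vs WT_Con it was 0, then 3 with DESeq2 (7.99%), 2 with limma-voom (7.25%), 2 with 1 fit of all libraries (4.23%), 1 with relative log expression size factors, 1 without the filter, and 0 to 2 with each library left out (1 without WT_Con replicate 3 or WT_Half replicate 2, 2 without WT_Half replicate 6). In KI_Half vs KI_Con it was 7, then 2 (Cxcl9 and Iigp1) with 1 fit of all libraries (32%), 2 (Cxcl9 and Gbp3) without the control libraries rich in Ctrb1 (15.1%), and 4 to 8 with each library left out. It was 4 without KI_Con replicate 1 or 4 and without KI_Half replicate 1 or 2; Cxcl9, Gbp3, Ifih1 and Herc6 passed in each of these. In KI_Half vs WT_Half limma-voom gave 2 (5.23%). All calls in these sentences were lower, except that Rsad2 passed as higher without KI_Half replicate 3. In no comparison did every pair of same-numbered libraries correlate above 0.1, and the main fits held no replicate block. In KI_Con vs WT_Con 3 of 4 pairs did (highest 0.24), each best with its own number. Whether same-numbered libraries share a batch was not tested. The replicate block was fitted only to libraries whose number occurs in every group compared, which are replicates 1, 2 and 3 in KI_Half vs KI_Con. With it the count was 16 in KI_Half vs KI_Con (36.4% of all genes) and 0 in the others. The type I median there was -0.56. The block and the loss of the other libraries cannot be told apart in these values. Of the comparisons' 136 counts under alternatives, the other 116 stayed within 1.5 times.

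Without WT_Con replicate 1, signs turned for Ifi44 (0.03 in WT_Full vs WT_Con, 0.55 in WT_Half vs WT_Con, 0.07 in KI_Con vs WT_Con), and in KI_Con vs WT_Con for Bst2 (0.12), Igtp (0.32) and Gbp7 (0.12), and for Iigp1 in the interaction (-0.06). With each library left out in turn, the far ends for these were -2.18, -1.55 and -1.87 for Ifi44, -0.88 for Bst2, -0.95 for Igtp, -0.47 for Gbp7 and 0.49 for Iigp1. With limma-voom they turned for Igtp in KI_Con vs WT_Con (0.15) and in the interaction for Gbp2 (-0.06) and Iigp1 (-0.31), and without the control libraries rich in Ctrb1 for Bst2 (0.06). None of these had passed. The cause was not tested. With limma-voom the type I median was 0.12 in WT_Full vs WT_Con and 0.09 in KI_Con vs WT_Con, and in the interaction -0.93. The count of all genes past the threshold also moved, from 1 to 934 with DESeq2 and 1410 with limma-voom in WT_Full vs WT_Con, from 249 to 1353 and 1232 in WT_Half vs WT_Con, and from 0 to 172 and 884 in KI_Half vs WT_Half. The lowest count of a member was 5, for Cxcl9 in WT_Full replicate 1, so counting error is large there.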
